A study of Mus musculus with 444 samples.

Results

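Il33, which encodes the cytokine interleukin-33, was 1 of the 25136 genes counted in single cells of the mouse mammary epithelium at puberty and in adulthood. It was taken for its high level in pubertal cells, and its row was found through its Entrez gene number. Its levels by stage, by lineage and beside correlated genes are therefore descriptions, with no test. IL-33 belongs to the IL-1 family. It is stored in the nucleus of epithelial, endothelial and stromal cells and acts as an alarmin, a signal set free when cells are damaged or stressed. Outside the cell it binds the receptor ST2, encoded by Il1rl1, together with the co-receptor encoded by Il1rap. The receptor complex recruits MyD88 and the IRAK kinases and ends in activation of NF-kB, mostly in immune cells. In the mammary ducts, an outer layer of contractile basal (myoepithelial) cells surrounds a luminal layer of progenitors and mature, hormone-sensing cells.

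The cells came from FVB/NJ mice, an inbred strain, with no treatment named in the labels. They were total epithelium of female mice, aged about 5 weeks at puberty, when the ductal tree grows, and 10 weeks as adults. The names of the deposited pubertal files give a slightly younger age than the methods used here. The glands of several mice were pooled for each sort, which removed cells with the surface antigens CD31, CD45 or TER119, and single cells were captured on the Fluidigm C1, a microfluidic device. The labels name no animal, sort or capture for any cell, so each stage stood as 1 sample and the stage cannot be told apart from its captures. Intervals below are at the 95% level and cover counting error only.

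A total of 171 of 221 pubertal and 152 of 223 adult cells had at least 100000 read pairs on the genes used and at least 1500 of these genes detected. Retained cells held a median of 309941 read pairs in puberty and 331034 in the adult, and each was thinned to 100000, where 1 read pair equals 10 CPM (read pairs scaled to a total of 1000000). Epcam, the surface protein of epithelial cells, had a read in 95.3% of retained pubertal and 96.1% of retained adult cells. Of 8 fibroblast markers, 6 or more had a read in 10 pubertal and 4 adult cells. The adult cells were not uniform, since Rn7sk, a small nuclear RNA, had a read in 103 of the 107 cells with title numbers 48 to 188 and in 4 of the other 45. Both sets of adult cells are given for the main Il33 levels and for the counts of genes in the lists used below. Other adult values pool these sets.

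Il33 lies on chromosome 19 of GRCm38, the assembly also called mm10, from 29925113 to 29960718 in the RefSeq annotation. The GENCODE annotation gives it 2 transcripts on the plus strand, which start at 29925114 and at 29945790, the latter within the first intron of the longer one. Both use the same exon 2, from 29949660 to 29949767, which holds the start codon at 29949671. They share exons 3 to 7 as well, and their last exon begins at 29958850. The counts are per gene, so reads from these starts were not separated. The RefSeq table also places Gm41832, a long non-coding RNA gene from 29838027 to 29927044, across the first start, and the use of strand in counting was not stated.

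Il33 was present in most pubertal cells and in few adult cells. It had a read in 109 of 171 pubertal cells (63.7%, exact interval 56.1 to 70.9%) and in 11 of 152 adult cells (7.24%, 3.67 to 12.6%). Without thinning the shares were 69.0% and 10.5%. The pubertal sum came to 1079.9 CPM (Poisson interval 1064 to 1096) and the adult sum to 40.7 CPM (37.5 to 44.0). The ratio of these means was 26.6 (24.5 to 28.8), a log2 ratio of 4.70 with a prior of 1 CPM. Per kilobase of gene, Il33 reached 415 RPKM over pubertal cells and 15.6 RPKM over adult cells. Ordered by CPM, it was the gene of rank 92 in puberty and of rank 4357 in the adult. The adult value depended on the set of cells: cells 48 to 188 gave 20.0 CPM (7 of 107 cells with a read) and the others 89.8 CPM (4 of 45), so that the ratio was 54.0 against the first set and 12.0 against the second.

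Pubertal cells differed widely among themselves. The lowest cells had no read, the median was 90.0 CPM, the upper quartile 1515 CPM and the highest cell 15450 CPM. Of the 171 cells, 62 had none, 25 had less than 100 CPM, 32 had 100 to below 1000 CPM and 52 had 1000 CPM or more. The 10 highest cells held 43.1% of all pubertal Il33 reads and the highest alone 8.37%. These 10 cells had at least 4730 CPM each, and all of them were in the cluster with mature luminal markers described next. Along the title numbers, every run of 20 with 10 or more retained pubertal cells included cells with Il33, the share ranging from 38.9% to 94.1% over 10 such runs. In the 11 adult runs it ranged from 0% to 18.2%. The labels do not tie these runs to captures.

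To place Il33 in a lineage, cells were clustered on published lists of genes for each lineage, among which Il33 is not found, and the clusters were named from marker lists. The mature luminal-like cluster had reads in a median of 8 of 12 mature luminal markers per cell in each stage. In puberty 94.7% of its cells had Cited1, a co-activator of the oestrogen receptor, and 98.7% had Prlr, the prolactin receptor. The basal-like cluster had a median of 9 of 12 basal markers in puberty and 10 in the adult, with the smooth muscle actin gene Acta2 in 93.1% and 97.1% of cells. Pubertal basal-like cells also carried a median of 5 mature luminal markers, against 2 in adult ones. The luminal progenitor-like cluster had medians of 8 and 9 of 12 progenitor markers. Adult luminal cells carried more basal markers than pubertal ones, with medians of 5 against 1 in the mature luminal-like cluster, where Acta2 had a read in 64.3% of adult and 32.9% of pubertal cells, and of 8 against 1 in the progenitor-like cluster. The part of these mixed markers in the values below was not tested. The other 5 cells stayed unnamed.

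In puberty Il33 was highest in the mature luminal-like cells. A read was present in 68 of 76 of these (89.5%, 80.3 to 95.3%), with a mean of 2082.5 CPM. The lowest of these cells had none, the quartiles were 180.0 and 2560 CPM, the median was 1425 CPM and the highest was 15450 CPM. By mean level Il33 was the gene of rank 37 in this class. Basal-like cells had Il33 in 35 of 72 cells (48.6%, 36.7 to 60.7%) at a mean of 303 CPM, with a median of 0 and an upper quartile of 67.5 CPM. Luminal progenitor-like cells had it in 5 of 19 (26.3%, 9.15 to 51.2%) at 160.0 CPM, or 54.4 CPM without the highest cell. Both means rested mostly on cells at 2060 and 780 CPM. These had reads in 11 and 10 mature luminal markers, where the class median was 3. The remaining progenitor-like cells with a read were at 170, 20 and 10 CPM. The quartiles of mature luminal-like and basal-like cells did not overlap, while single cells did, the highest basal-like cell reaching 2810 CPM. Basal-like and progenitor-like cells overlapped in their quartiles and in the intervals of their shares. Mature luminal-like cells held 85.7% of all pubertal Il33 reads.

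**Figure D1:**
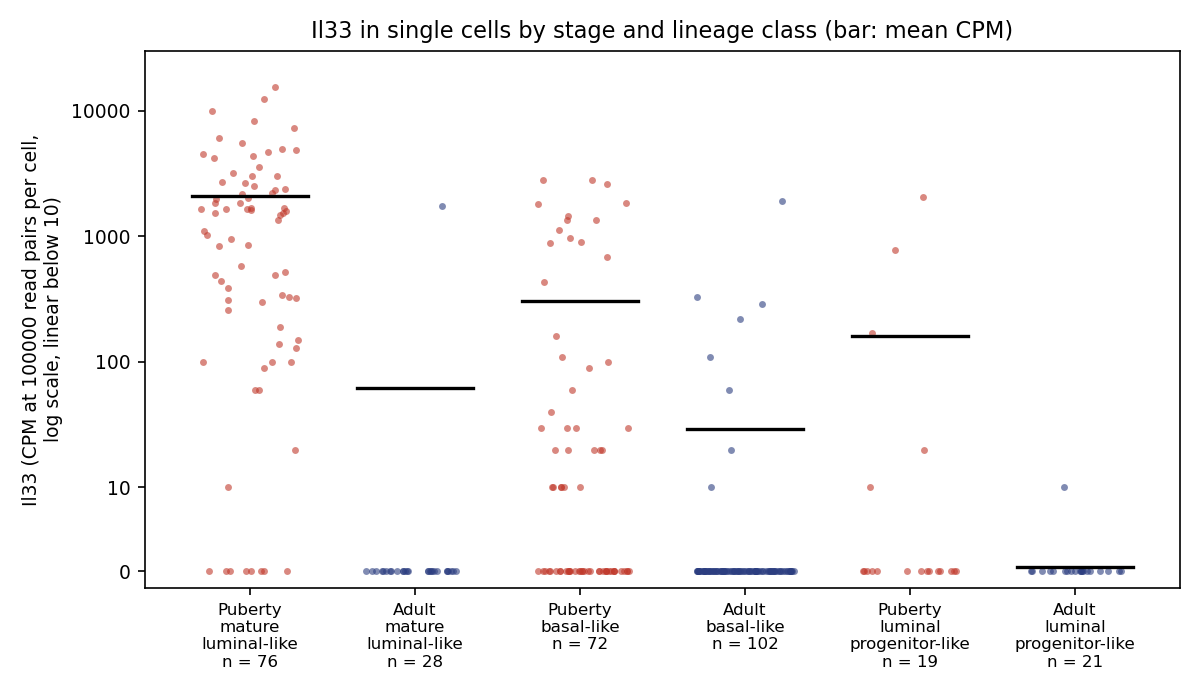
Il33 in each retained cell, in CPM at 100000 read pairs per cell (logarithmic axis, linear below 10), for 3 lineage classes in puberty (red) and the adult (blue). Points are cells and black bars are means. The 76 pubertal mature luminal-like cells have a mean of 2082.5 CPM, and 27 of the 28 adult ones lie at 0.

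The same class in the adult had almost no Il33. A read was found in 1 of 28 adult mature luminal-like cells (3.57%, 0.0904 to 18.3%), and the class mean of 61.8 CPM came entirely from that cell, at 1730 CPM. The other 27 had none. Adult basal-like cells had Il33 in 8 of 102 (7.84%, 3.45 to 14.9%) at 29.0 CPM, and adult progenitor-like cells had 1 read in 21 cells. Among adult cells 48 to 188 the mature luminal-like and basal-like means were 0 (11 cells) and 8.23 CPM (79 cells), and among the others 102 CPM (17 cells) and 100.4 CPM (23 cells). All reads behind this last value came from 3 cells with 7 or 8 of the 8 fibroblast markers, and without cells of 6 or more such markers the adult basal-like mean was 6.57 CPM (5 of 99 cells). The intervals of these adult shares overlapped one another, and the order of the adult classes was not resolved. Cited1, Areg and Prlr are on the lists that set and named the class, so their presence in both stages follows from how it was made. From puberty to the adult, the share of cells with a read went from 94.7% to 67.9% for Cited1. It went from 90.8% to 75.0% for Areg and from 98.7% to 100.0% for Prlr. In pubertal and adult mature luminal-like cells, Cited1 was at 1151 and 1298 CPM, Areg, for a ligand of the EGF receptor, at 1293 and 1168 CPM, and Prlr at 3877 and 12128 CPM.

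Markers were also counted cell by cell, without clusters. With reads in 0 to 3 of the 12 mature luminal markers, 10 of 43 pubertal cells had Il33 (23.3%). With 4 to 7 markers it was 39 of 64 (60.9%), and with 8 or more it was 60 of 64 (93.8%, 84.8 to 98.3%). The corresponding adult counts were 3 of 83, 5 of 44 and 3 of 25 cells, the last being 12.0% (2.55 to 31.2%). The pubertal share was higher than the adult share in each band. This is a description and no test of stage, since Il33 was taken for its high level in pubertal cells. The intervals cover counting error only and not differences between mice or captures. Among basal-like pubertal cells, Il33 was found in 19 of 30 with 6 or more mature luminal markers (583 CPM) and in 16 of 42 with fewer (104 CPM). The median of these 42 cells was 0. Their highest cell, at 2790 CPM, had 8 of the 8 fibroblast markers and 1 mature luminal marker, and it weighed heavily on their mean.

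**Figure D2:**
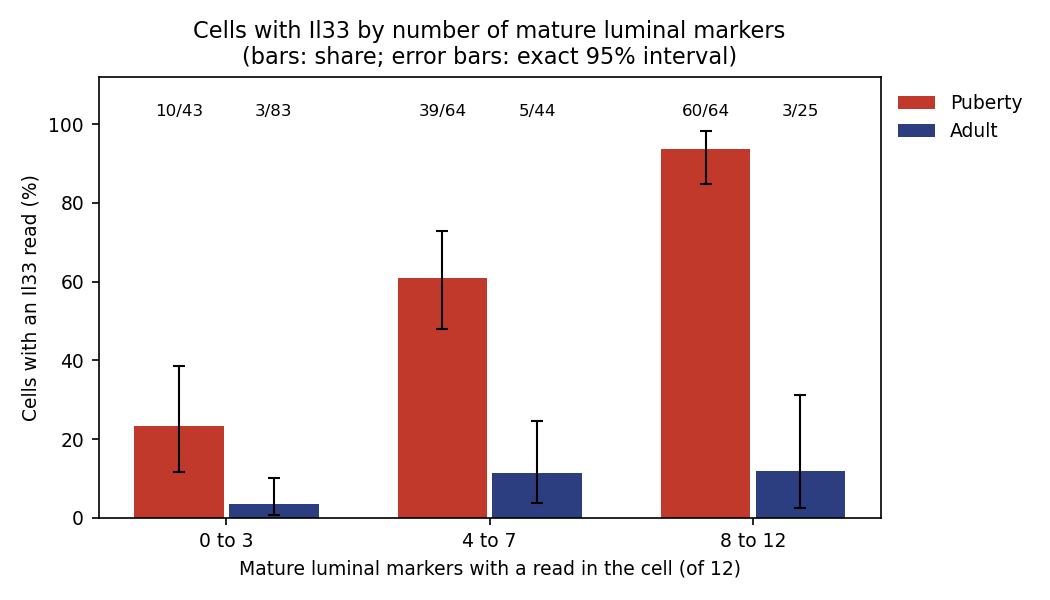
Share of retained cells with an Il33 read (vertical axis, percent) by the number of mature luminal markers with a read (horizontal axis, of 12), in puberty (red) and the adult (blue). Bars are shares, error bars exact 95% intervals, and the numbers above them cells with Il33 of all cells in the band; the pubertal share goes from 23.3% to 93.8%, the adult share from 3.61% to 12.0%.

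Single markers of the hormone-sensing lineage were set beside Il33 in the same way. Of pubertal cells with Cited1, 89 of 108 had Il33 (82.4%, 73.9 to 89.1%), compared with 20 of 63 without Cited1. Of adult cells with Cited1, 7 of 42 had Il33 (16.7%, 6.97 to 31.4%). For Esr1, the oestrogen receptor, the counts were 46 of 53 pubertal cells (86.8%) and 5 of 29 adult cells (17.2%). For Pgr, the progesterone receptor, they were 49 of 60 (81.7%) and 5 of 45 (11.1%). Of pubertal cells without Esr1, 63 of 118 had Il33 (53.4%).

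Keratins, the structural proteins that mark each layer, divided the cells less sharply. At 10 CPM, 60 of 80 pubertal cells with Krt8 or Krt18 and without Krt5 or Krt14 had Il33 (75.0%, 64.1 to 84.0%) at 1584 CPM. Cells with keratins of both layers had it in 46 of 80 (57.5%, 45.9 to 68.5%) at 688 CPM. The 8 cells with basal keratins alone had no read, which allows a share of up to 37.5% (3 counts of 8, the limit used here for a count of 0). All 3 cells with neither had Il33, at a mean of 967 CPM. The highest of them, at 2790 CPM, had 8 of the 8 fibroblast markers. In the adult Il33 was in 3 of 13 cells with luminal keratins alone (23.1%) and 8 of 136 with both (5.88%). With a threshold of 100 CPM the adult luminal group grew to 44 cells and its share was 2.27%. Of the 3 adult cells at 10 CPM, 2 also had 6 or more fibroblast markers.

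The 11 adult cells with Il33 were a mixed group. The 4 adult cells with 6 or more fibroblast markers, such as the collagen gene Col1a1, all had Il33, at 1920, 1480, 330 and 60 CPM, and they held 61.3% of the adult reads. The single mature luminal-like cell held 28.0%. The other 6 cells, at 10 to 290 CPM, held 10.7%. Without the cells with 6 or more fibroblast markers the adult mean was 16.1 CPM, with 7 of 148 cells (4.73%), and the ratio of puberty over adult was 68.8. In puberty 6 of the 10 cells with that many fibroblast markers had Il33, and they held 3.18% of the reads. The pubertal values hardly moved without them, at 1110.5 CPM with 103 of 161 cells (64.0%), and none of these cells was mature luminal-like. Endothelial cells are a known source of IL-33 as well. Of 8 endothelial markers, 3 or more had a read in 8 pubertal cells, 5 of them with Il33 and the group at a mean of 234 CPM, and in 6 adult cells, none with Il33.

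Genes that accompanied Il33 across the 171 pubertal cells were ordered by Spearman's rho over 4835 genes detected in at least 20% of the cells. The median rho over these genes was 0.06, and 95% of them lay below 0.28. The cells share their preparation, and the coefficients are a description. Read pairs per cell before thinning had a rho of 0.00014 with Il33, and the number of genes detected after thinning had 0.23. The highest coefficient was that of Cited1 (0.66). Areg (0.58), Tlcd4 (0.60), formerly called Tmem56, and Tspan1 (0.56), a tetraspanin, followed with it, and these 4 belong to the lineage or marker lists that set the classes, as does Crym (0.57), which encodes a protein that binds thyroid hormone. The others were on none of these lists. They were the long non-coding RNA genes Gm20016 (0.61) and AW112010 (0.58), S100a6 (0.57) and S100a11 (0.55), both for calcium-binding proteins, and Wfdc2 (0.56), for a secreted protein of the whey acidic protein family.

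Of the 5 genes with the lowest coefficients, Col4a1 was on the lineage or marker lists and the others were not. The lowest coefficients were those of Cald1 (-0.51), for an actin-binding protein of contractile cells, and Lcn2 (-0.50), for a secreted protein that binds iron carriers. Col4a1 (-0.45) encodes a collagen of the basement membrane, Nfib (-0.44) a transcription factor and Igfbp5 (-0.44) a protein that binds insulin-like growth factors. The marker lists were set beside Il33 in the same way. Of 12 mature luminal markers, 11 had a positive rho, with a median of 0.50, and the remaining gene, Tnfsf11, had no read in these cells. All 12 basal markers had a negative rho, between -0.39 and -0.24, and so had 11 of 12 progenitor markers. Summed levels of 15 cell cycle genes (0.08), of 14 genes induced by tissue dissociation (0.03), of the fibroblast markers (-0.08) and of the endothelial markers (-0.09) had coefficients near 0.

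**Figure D3:**
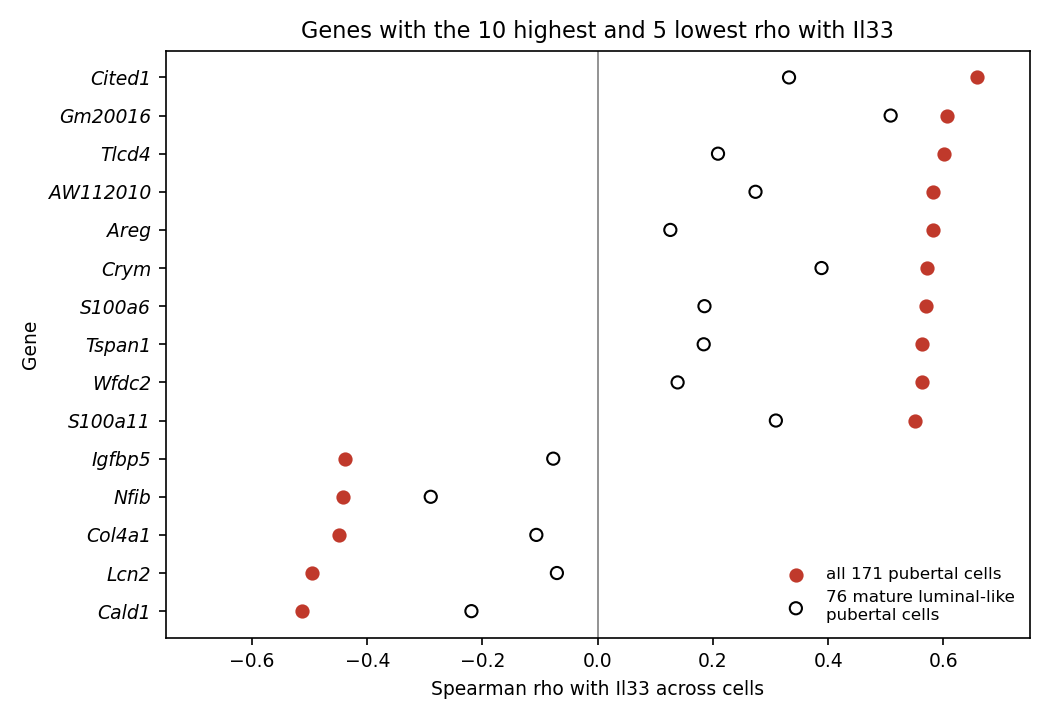
Spearman's rho with Il33 (horizontal axis) for the 10 highest and 5 lowest genes (vertical axis), over all 171 pubertal cells (red) and within the 76 mature luminal-like ones (open). Cited1 goes from 0.66 to 0.33 and Areg from 0.58 to 0.13, while Gm20016 goes from 0.61 to 0.51, the highest within the class.

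Within the 76 pubertal mature luminal-like cells most of these relations were weaker. The median rho of the 12 mature luminal markers was 0.14, and Areg had 0.13. Gm20016, an uncharacterised gene on chromosome 12 (57507054 to 57514975), had the highest rho there, at 0.51. Reads of Gm20016 were present in 33.9% of cells at puberty and 6.58% in the adult, with means of 115 and 14.1 CPM. The next were Ube2r2 (0.49), for an enzyme of ubiquitin transfer, Prdx2 (0.47), for a peroxidase, Acot13 (0.43), for a thioesterase of fatty acyl-CoA, and Timmdc1 (0.42), for an assembly factor of respiratory complex I. Over all pubertal cells these 4 had coefficients between 0.18 and 0.25, and with 76 cells and sparse counts their order is not firm. Crym kept 0.39. The 8 mature luminal-like cells without Il33 had a median of 6 mature luminal markers and 2362 genes, compared with 8 markers and 2965 genes in the 68 with it, and 7 of the 8 had Cited1. Within the class the number of genes detected had a rho of 0.29 with Il33, and its part in these values was not tested.

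Other genes with high levels at puberty were divided between the classes in more than 1 way. These 7 genes were chosen, like Il33, for a high ratio of puberty over adult, so the stages are given as a description. Itih2, for a heavy chain of a hyaluronan-binding inhibitor, had a read in 55 of 76 pubertal mature luminal-like cells and 17 of 72 basal-like cells. It was at 568 CPM in the former and at 7.86 CPM in the same adult class. Upk3a, for a uroplakin of the cell surface, was in 48 of 76 and 15 of 72 cells. Crym was in 52 and 18, S100a14, for a calcium-binding protein, in 45 and 22, and Grb14, for an adaptor of receptor tyrosine kinases, in 46 and 18. By mean level Grb14 was highest in pubertal luminal progenitor-like cells, at 509 CPM with a read in 3 of 19 cells, compared with 170 CPM in the mature luminal-like ones. Their rho with Il33 over pubertal cells lay between 0.36 for Grb14 and 0.57 for Crym.

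Inhba, for the beta A subunit of activin, and Ddx60, for a helicase induced by interferon, were divided otherwise. Inhba was found in 21 of 76 mature luminal-like and 21 of 72 basal-like pubertal cells, and Ddx60 in 23 and 17. In luminal progenitor-like pubertal cells Ddx60 was found in 8 of 19 (42.1%) and Inhba in 2. Each had a rho of 0.05 with Il33. Adult mature luminal-like cells had no read of Inhba or S100a14, 1 of 28 cells with Ddx60 or Itih2, 2 with Upk3a and 4 with Grb14. Crym had the highest share of the 7 there, 8 of 28 cells at 103 CPM, and Upk3a the highest mean, 207 CPM.

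**Figure D4:**
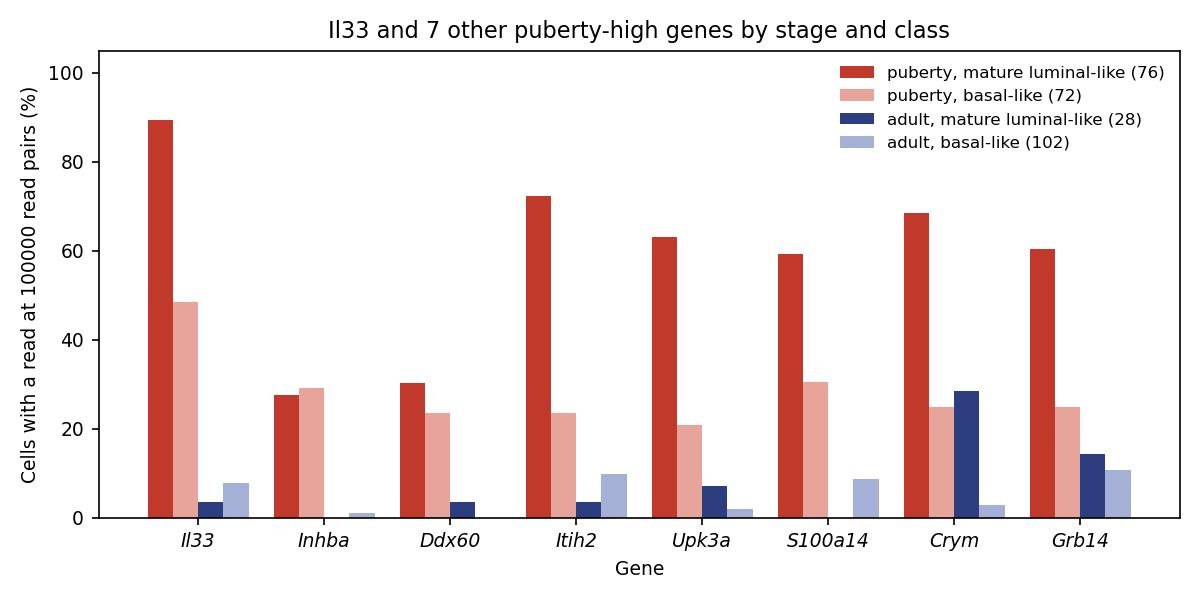
Share of cells with a read (vertical axis, percent) for Il33 and the 7 other genes (horizontal axis) in mature luminal-like and basal-like cells of puberty (red shades) and the adult (blue shades). Il33 has the highest share of the 8 genes in pubertal mature luminal-like cells, 89.5%, and Inhba is found in 27.6% of these and 29.2% of basal-like cells.

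The receptor of IL-33 was rarely detected in these epithelial cells at this depth. Il1rl1 had 8 reads in 3 of 171 pubertal cells (0.47 CPM) and 19 reads in 1 of 152 adult cells (1.25 CPM). Il1rap had a read in 23 pubertal cells (8.60 CPM) and 14 adult cells (19.8 CPM). Both stayed under the 20 CPM that a gene had to reach in 1 stage to be compared, which 14 of the 20 genes of the receptor and its proximal signalling did. Of those 14, 1 was 2-fold or more higher in puberty and 1 lower, with a median log2 ratio of -0.57. Over all 7806 genes that reached the level, 19.9% were 2-fold or more higher, 14.3% lower, and the median was 0.09. The higher gene was Irak4, for the first kinase recruited by MyD88, at 142 CPM in pubertal and 37.2 CPM in adult cells, with a read in 76 of 171 and 38 of 152 cells. The lower one was Nfkbia, for the inhibitor of NF-kB and itself a target of it, at 652 and 1576 CPM. Myd88 was at 60.5 and 93.0 CPM, with a log2 ratio of -0.61.

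Genes for the processing and release of IL-33, such as caspases and calpains, were mostly low. Of 11 genes, 4 reached the level. None of these was 2-fold or more higher in puberty and 1 was lower, beside 19.9% and 14.3% over all genes. The lower one was Casp1, for the inflammatory caspase, at 9.30 CPM in pubertal and 69.2 CPM in adult cells. In the adult 1 cell held 62.8% of its reads and the rest stood at 25.9 CPM. The protease genes of mast cells and neutrophils Cma1 and Ctsg had no read in either stage, and Elane had reads in 2 pubertal cells. The sort had removed cells with CD45, an antigen of immune cells. Among the other IL-1 family ligands, 8 of 9 could be matched, and 5 of these had no read in any retained cell. Il1rn, for the antagonist of the IL-1 receptor, was the only one to reach the level, at 48.0 and 33.4 CPM. Il18 was at 2.11 and 16.2 CPM, and Il1b had 1 read in all. Per kilobase, Il33 stood at 415 RPKM over pubertal cells, beside 17.8 RPKM for Il1rn and 2.43 RPKM for Il18. In puberty 1 cell held 71.7% of the Il1rn reads and 1 cell held 63.9% of the Il18 reads.

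None of the other alarmins was 2-fold or more higher in puberty. Il25 had no read in 171 pubertal or 152 adult cells, which allows shares of up to 1.75% and 1.97%. Tslp, for thymic stromal lymphopoietin, was at 1.23 CPM in pubertal and 22.2 CPM in adult cells, where a single cell held 97.6% of the reads and the rest stood at 0.53 CPM. Hmgb1, for a nuclear protein that also serves as an alarmin, was at 498 and 352 CPM. Il4, Il5 and Il13, the cytokines of type 2 immune cells, had no reads, in cells sorted to leave out those with CD45, an antigen of immune cells. Of the 10 genes in this list 3 reached the level, and Tslp was the only one past the fold. Over all genes 19.9% were higher and 14.3% lower. Areg, which is also a mature luminal marker here, was at 751 and 404 CPM, a log2 ratio of 0.89.

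Of 14 NF-kB target genes, 11 reached the level, with a median log2 ratio of -0.36. Of these, 1 was 2-fold or more higher in puberty and 3 lower, beside 19.9% and 14.3% over all genes. The higher one was Nfkb2 (66.4 and 29.3 CPM in puberty and the adult), which encodes a subunit of NF-kB. It had a read in 34 of 171 pubertal and 45 of 152 adult cells, a lower share in puberty, and without its highest pubertal cell it stood at 46.7 CPM, under 2-fold. The lower ones were Nfkbia, the chemokine gene Cxcl2 (24.6 and 80.6 CPM) and Tnfaip3 (16.4 and 34.3 CPM), for an enzyme that restrains NF-kB, which stood at 23.9 CPM without its highest adult cell, also under 2-fold. The summed level of the 14 genes had a rho of -0.10 with Il33 across pubertal cells. Over the 5 lists together, 2 of 32 genes at the level were higher and 5 lower, beside 19.9% and 14.3% over all genes. Against adult cells 48 to 188 it was 5 higher and 6 lower of 30, beside 25.7% and 15.5% over all genes. Against the other adult cells it was 7 higher and 9 lower of 32, beside 28.1% and 20.2%. With TMM scaling, which lowered all log2 ratios by 0.12, it was 2 and 9 of 33, beside 16.9% and 17.1% over all genes.

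**Figure D5:**
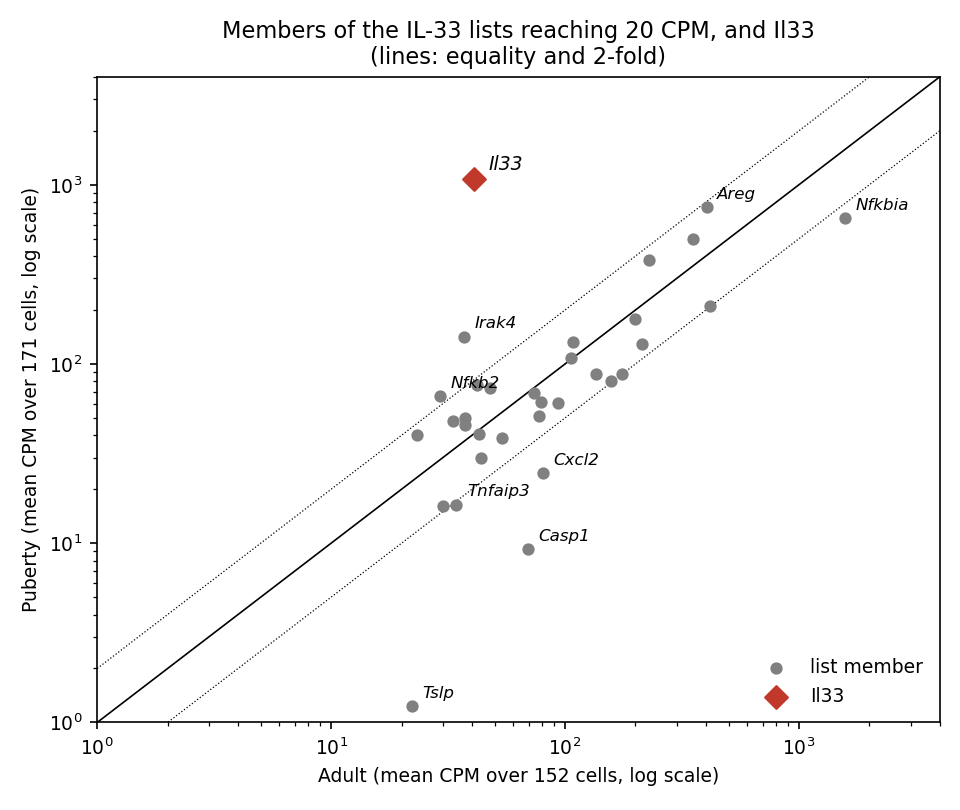
Mean CPM over pubertal cells (vertical axis) and adult cells (horizontal axis), both logarithmic, for Il33 (red) and the 32 genes of the IL-33 lists that reached 20 CPM in 1 stage (grey). The solid line marks equality and the dotted lines 2-fold. Il33 lies at 1079.9 and 40.7 CPM. Of the list genes 2 lie above and 5 below the dotted lines, beside 19.9% and 14.3% of all genes at that level.

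Within puberty the same lists were compared between the class with the most Il33 and the basal-like class. Of 30 genes that reached 20 CPM in 1 class, 9 were 2-fold or more higher in mature luminal-like cells and 6 lower, with a median log2 ratio of 0.28. Over all 7863 genes at that level 21.3% were higher and 24.7% lower, and the median was -0.0047. Il33 itself had a log2 ratio of 2.77. In receptor signalling 5 of 15 genes were higher, namely Irak4 (205 and 84.4 CPM), Chuk (115 and 39.3 CPM), Ikbkg (62.6 and 28.9 CPM), Nfkb1 (106 and 47.2 CPM) and Tab2 (142 and 68.8 CPM), and Irak3, an inhibitory member of the kinase family, was lower (0.26 and 22.9 CPM). Chuk and Ikbkg encode parts of the kinase complex that acts on the NF-kB inhibitor. Casp8 was higher (139 and 31.0 CPM), while Casp1 (1.71 and 20.3 CPM) and Gsdmd (0.39 and 22.4 CPM), for the pore protein that caspase 1 cleaves, were lower. Il1rn (102 and 5.69 CPM) was higher, and so were Areg (1293 and 334 CPM) and Relb (61.3 and 15.0 CPM), for another NF-kB subunit. The NF-kB targets Nfkbiz (94.7 and 255 CPM), Cxcl1 (123 and 421 CPM) and Icam1 (75.8 and 333 CPM) were lower in mature luminal-like cells. Shares of cells with a read went against the mean for Cxcl1 (28.9% and 25.0%), Chuk (30.3% and 37.5%) and Nfkb1 (30.3% and 33.3%). For the other genes past the fold they went with it. Several of the differences in mean rested on 1 cell. When each gene lost its highest cell in the class with the higher mean, 5 of the 9 higher and 3 of the 6 lower genes were still past the fold at 20 CPM. Chuk and Cxcl1 were then close to the fold, at log2 ratios of 1.00 and -1.03. For Il1rn that cell held 75.8% of the mature luminal-like reads, and the means were then 25.1 and 5.69 CPM. Casp8 then stood at 57.3 and 31.0 CPM, Nfkb1 at 64.9 and 47.2 CPM, Tab2 at 109 and 68.8 CPM and Ikbkg at 46.5 and 28.9 CPM, all under 2-fold. Irak3, Casp1 and Gsdmd no longer reached 20 CPM in either class, with 11.4, 8.03 and 0.42 CPM in basal-like cells. Over all genes 12.6% were higher and 15.7% lower in that setting, which was chosen after seeing the data. The classes were made from the same cells, so these ratios are a description of them.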

How the data were processed

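The deposited files hold raw counts of read pairs per gene, 1 file per cell. The authors aligned read pairs to mm10 with Subread and counted them with featureCounts on the RefSeq annotation of Rsubread (versions not given in the sources used here), with no molecular identifiers. The combined table was not used here.

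Of 27179 identifiers, 25275 matched a current gene of GRCm38.p6, and 1.84% of read pairs lay on the rest. Removing 15 mitochondrial genes and 124 genes of ribosomal proteins, as in the study, left 25136 genes. Fewer cells passed the minimums of the study than it shows. Retained cells were thinned to 100000 read pairs (seed 1). No doublet caller was run, since the study inspected each capture site. With 1 sample per stage no test was run. Shares carry Clopper-Pearson and sums Poisson intervals, both exact. A gene past the fold differed 2-fold or more (prior 1 CPM) among genes reaching 20 CPM.

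Classes came from complete linkage (5 clusters) on log2 RPKM (prior count 5) of 175 basal and 166 luminal lineage genes of the study. A cluster of 10 or more cells was named where 3 or more markers were in 50% of its cells, 20 percentage points above the rest and 2 times as many as for the next class. This rule was set after the clusters were seen. The basal-like and mature luminal-like clusters had no marker among their 10 leading genes, so the names are uncertain, and a difference from the study may come from these rebuilt names. In the lineage lists, read from page images, 7 symbols were mended after a first clustering and 2 stayed unmatched.

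Genes named are Il33, the 10 highest and 5 lowest by rho, the 5 highest within mature luminal-like cells, list members past the fold, 5 genes of interest at any level (Il1rl1, Il1rap, Tslp, Il25, Areg) and 7 puberty-high genes. Myd88, Hmgb1, Il18 and others were named after their values were seen. Members and lists were chosen with earlier results of these data known. Alternatives were another prior, scaling, cell filter, seed, detection limit, clustering and set of adult cells. Scripts were tested on simulated data. Tools were Python 3.11.15, numpy 2.4.6, scipy 1.17.1, R 4.3.3 and edgeR 4.0.16 (TMM factors).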

Additional observations from a re-analysis of the deposited data

Results flagged for a closer look

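Il33 also had reads in cells that the coverage filter left out. In puberty 18 of 50 such cells had a read (36.0%, 22.9 to 50.8%), with 701 reads in all, and in the adult 2 of 71 (2.82%, 0.343 to 9.81%), with 26 reads. The median depth of these cells was 17959 and 17018 read pairs. They enter no comparison above.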

How the results depend on the processing

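Values for cells are limited by depth, by 1 sample per stage and by the rebuilt classes. The log2 ratio of Il33 between puberty and adult stayed positive under all 10 alternatives. It was 4.43 with a prior of 10 CPM, 4.58 with TMM scaling, 4.99 with the stricter cell filter, 5.09 when each stage lost its highest cell, 5.69 and 3.57 against adult cells 48 to 188 and the others, and 6.02 without cells with 6 or more fibroblast markers (chosen after seeing the data). The pubertal share was 52.0% when 5 read pairs were asked for. By class, Ward linkage left 3 pubertal basal-like cells, with a share of 33.3%. Clusters of 102 and 29 cells, 56 and 23 of them pubertal, stayed unnamed under it. The pubertal basal-like share therefore depends on the linkage. Ward linkage changed no other share beyond its interval. With the lineage symbols spelled as first read, luminal cells formed 1 cluster of 114 pubertal and 61 adult cells, where Il33 was in 75.4% and 8.20%, and the basal cluster had 34.1% and 2.35%. Leaving the 7 mended genes out moved no share beyond its interval. Without their highest cell, those with luminal keratins alone had 1447 CPM (puberty) and 172 CPM (adult), and 2.27% of adult ones had Il33 at 100 CPM. Of the 10 genes most like Il33, 8 to 10 were kept in 5 alternatives. List members higher in puberty numbered 1 of 32 with a prior of 10 CPM (14.5% of all genes) and 4 of 62 without the level filter (13.8%). They numbered 5 of 30 and 7 of 32 against the sets of adult cells (25.7% and 28.1%) and 1 of 30 without each gene's highest cell (12.4%). Lower members numbered 8 of 62 without the filter (9.55%), 9 of 32 against the adult cells outside 48 to 188 (20.2%) and 9 of 33 with TMM scaling (17.1%). Between classes, lower members numbered 11 of 39 at 5 CPM (27.9%) and 13 of 62 without the filter (15.5%). Without each gene's highest cell 5 of 26 were higher (12.6%) and 3 lower (15.7%). The cause was not tested. No paired analysis was possible because the cell numbers only name cells and no test was run.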
